A study of Mus musculus with 4 samples.

Results

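The miR-297, miR-466, miR-467 and miR-669 families were examined on 4 one-colour microRNA (miRNA) arrays of mouse MC3T3-E1 cells, an established osteoblastic line cloned from calvaria. Members were the array probes whose miRNA name begins with 1 of these 4 family names, of either arm, and a probe with several names counted when any name belonged. There were 71 such probes of 1900 miRNA probes on the array, and they carried 80 miRNA names. All cells carried an adenovirus vector and were kept in proliferation medium. The control cells overexpressed GFP, and the others overexpressed Wnt4, Wnt3a or Wnt5a, secreted ligands of Wnt receptors. Values are listed in the array order GFP, Wnt4, Wnt3a, Wnt5a unless the array is named. Each group was 1 array, so no difference below has a replicate check and no p-value was computed. The vector dose and the time of harvest are not given in the sources used here.

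In the mouse, most genes of these families lie as tandem repeats within an intron of Sfmbt2, an imprinted gene of the Polycomb group that is expressed from the paternal allele in the early embryo and placenta. The intron is transcribed with its host and processed into hairpins, each of which can release a 5p and a 3p arm. The cluster is best known from embryonic stem cells and from placenta, where its loss impairs growth. Because the hairpins arose by duplication, many mature members differ by a few bases or none, and probes for them may bind more than 1 member.

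The label of an Sfmbt2 intron cluster held for most members but not for all. RefSeq's genes on assembly GRCm38.p6 include 81 genes of the 4 families, of which 71 lie inside Sfmbt2 and 10 lie elsewhere. By name, 56 of the 71 probes matched genes inside Sfmbt2 alone, 9 matched genes elsewhere alone and 5 matched both, through copies of miR-297a and miR-466f outside the intron. miR-466a-5p matched no gene name.

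RefSeq mature sequences (GRCm38.p6) were matched for 8 member probes, all of genes outside Sfmbt2. They are shown because they carry the alternating repeats by which members of these families resemble each other. Capitals mark the seed, bases 2 to 8, which pairs with targets.
miR-466i-3p: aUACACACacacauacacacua
miR-466q: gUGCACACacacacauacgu
miR-467f: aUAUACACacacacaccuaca
miR-467g: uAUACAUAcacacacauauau
miR-466j: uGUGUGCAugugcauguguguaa
miR-466k: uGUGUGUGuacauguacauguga
miR-467h: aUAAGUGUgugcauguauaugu
miR-669n: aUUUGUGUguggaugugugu

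No 2 of these 8 members shared a seed. The first 4 hold the run ACACAC and the other 4 the run UGUGUG, searched on the given strand only. Of 1679 mature mouse miRNAs in the table, 0.655% hold ACACAC and 1.67% hold UGUGUG. Sequences were matched for 8 member probes, none of a gene inside Sfmbt2, so these shares leave out most of the families. The mature sequences lie apart on several chromosomes: miR-466q at chr3:28419988-28420007, miR-466k at chr3:85467396-85467418 and miR-669n at chr3:115979905-115979924, miR-467h at chr9:115381898-115381919, miR-466j at chr10:60960802-60960824 and miR-466i-3p at chr13:17747552-17747573, all on the plus strand. miR-467g at chr5:34732872-34732892 and miR-467f at chr11:69635419-69635439 are on the minus strand.

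The families gave dim signals on every array. Signal means the spot median in intensity units, and each array has its own level of blank spots, so signals of different arrays are not yet comparable. The blank spots had a mean of 90.8, 74.4, 72.8 and 96.9 units. The median member signal was 97.4, 75.8, 92.9 and 93.8 units, beside a median of 94.1, 74.7, 84.0 and 90.7 over all miRNA probes. Member signals ran from 69.9 to 179 units with GFP, from 59.9 to 161 with Wnt4, from 67.6 to 197 with Wnt3a and from 74.1 to 205 with Wnt5a. Brightness also depends on the probe, so signals give no order of abundance among miRNAs, and few cells with much of a miRNA cannot be told from many cells with little.

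**Figure D1:**
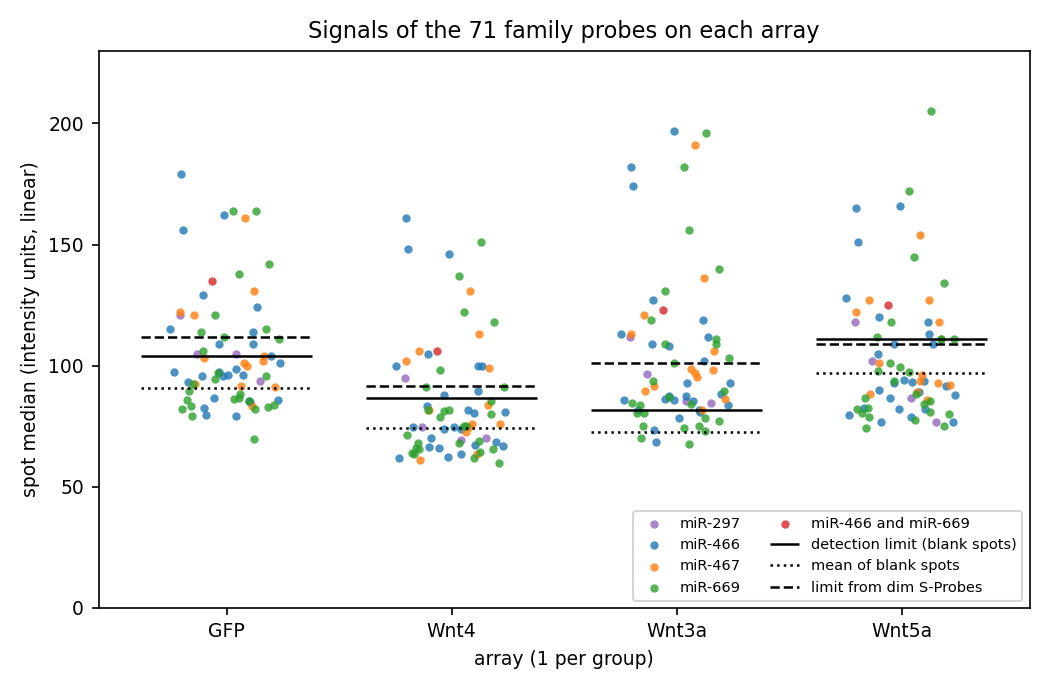
Spot medians (linear intensity units) of the 71 family probes on each of the 4 arrays, coloured by family, with the mean of blank spots (dotted), the detection limit from blank spots (solid) and a limit from dim control probes named S-Probe (dashed). Most points lie near the lines on every array, and on the Wnt3a array the solid line, at 81.7 units, lies well below the dashed one, at 101 units.

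A miRNA was called detected when its signal exceeded the blank mean by 2 SD, both taken over the middle 95% of blank spots, which put the limits at 104, 86.8, 81.7 and 111 units. On the GFP array 27 of the 71 member probes, or 38.0%, were detected, beside 32.5% of all miRNA probes. On the Wnt4 array 23 were detected, beside 28.9%, and on the Wnt5a array 20, beside 26.4%. The Wnt3a array stood apart with 54 members detected, or 76.1%, beside 56.2% of all. In all, 19 members were detected on all 4 arrays, beside 25.4% of all probes, and 17 were detected on none, beside 43.4%. Another 26 were detected on the Wnt3a array alone, beside 22.2% of all probes, and no member was detected on the GFP, Wnt4 or Wnt5a array alone.

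The count with Wnt3a depended on which spots set the limit. The files name 15 kinds of dim control probe S-Probe, without saying what they match. Their mean signal minus the blank mean was -2.34, -3.07, 6.54 and -10.5 units, so that the Wnt3a array was the one on which they lay above the blanks. With a limit set from these probes, chosen after seeing the data, 21, 19, 28 and 24 members were detected, beside 27.5%, 26.3%, 28.7% and 27.4% of all probes. With that limit 3 members, beside 1.42% of all probes, were detected with Wnt3a alone, and 18, beside 24.2%, on all 4 arrays. With a limit from negative control probes the counts were 16, 18, 24 and 14, beside 24.7%, 23.9%, 26.0% and 23.4% of all probes. With the limit at 5 SD of the blank spots they were 11, 11, 33 and 8, beside 22.4%, 20.5%, 32.9% and 20.3%.

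**Figure D2:**
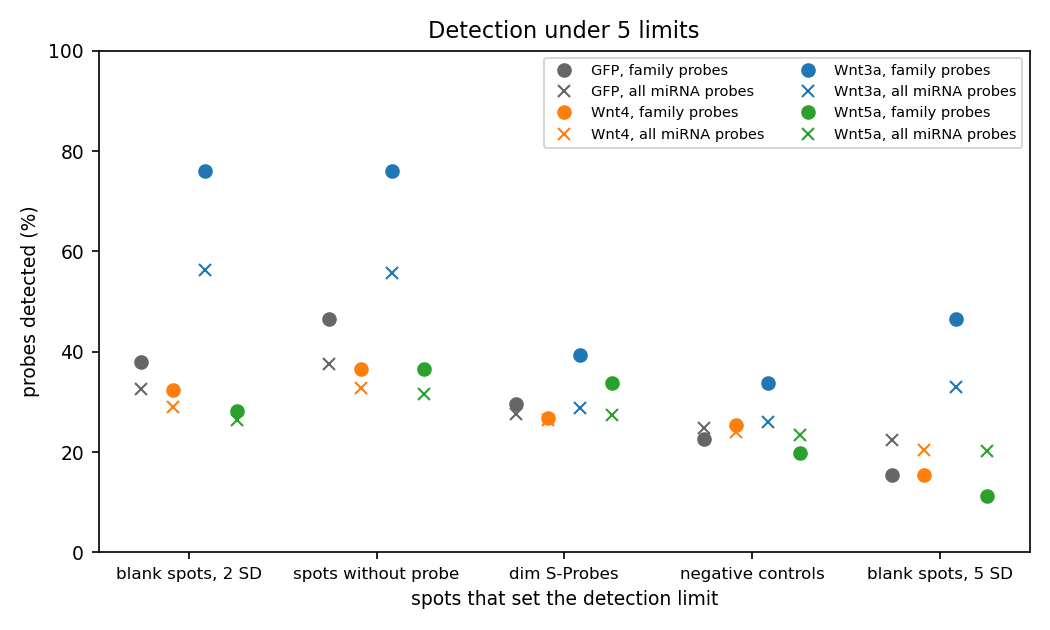
Percentage of family probes (circles) and of all miRNA probes (crosses) called detected on each array, for 5 ways to set the limit. The Wnt3a array leads by far with limits from blank spots at 2 SD or spots without probe, where 54 family probes are detected, leads with 33 at 5 SD, and comes near the other arrays with limits from dim S-Probes, where it has 28, or negative control probes, where it has 24.

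Each family had members above the limit, where 32.5%, 28.9%, 56.2% and 26.4% of all miRNA probes were detected. For miR-297, 3, 1, 4 and 1 of 4 probes were detected. For miR-466 the counts were 10, 10, 21 and 8 of 27 probes, for miR-467 they were 4, 5, 12 and 5 of 13, and for miR-669 they were 11, 8, 18 and 7 of 28. One probe, for miR-466m-5p and miR-669m-5p, counts in both miR-466 and miR-669. By arm, 14, 11, 25 and 11 of 30 5p probes and 10, 9, 21 and 8 of 29 3p probes were detected. Of the probes with genes inside Sfmbt2 alone, 20, 17, 41 and 16 of 56 were detected, and of those with genes elsewhere alone, 3, 3, 7 and 2 of 9.

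Among the printed members, miR-466j alone was detected on all 4 arrays, and miR-669n was detected on all but the Wnt5a array. miR-466j gave 115, 100, 113 and 128 units. miR-669n gave 111, 91.0, 103 and 111 units. miR-466k, miR-467f, miR-467g and miR-467h passed the limit on the Wnt3a array alone, and miR-466i-3p and miR-466q on none. Of the 8, those with UGUGUG were thus detected in 2, 2, 4 and 1 of 4 cases and those with ACACAC in 0, 0, 2 and 0 of 4. The share of all miRNA probes detected was 32.5%, 28.9%, 56.2% and 26.4%.

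The same runs occur in miRNAs outside these families. There, 4, 5, 13 and 4 of 22 probes with UGUGUG and 1, 1, 4 and 1 of 7 with ACACAC were detected. These counts stand beside 32.5%, 28.9%, 56.2% and 26.4% of all miRNA probes. Of the outside probes with these runs, the 5 brightest with GFP were let-7b-5p, let-7k, miR-574-3p, miR-206-3p and miR-574-5p. miR-574-5p gave 115, 97.9, 116 and 137 units and miR-574-3p gave 144, 118, 132 and 152 units. miR-206-3p, a muscle miRNA, gave 134, 110, 128 and 133 units. The log2 difference of miR-574-5p between Wnt5a and GFP, after normalization, was 0.31.

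The labelled cell type was checked with miRNAs typical of mesenchymal cells, of which 8 of 8 were detected on all 4 arrays. Of 9 markers of pluripotent cells, in which the Sfmbt2 cluster is known to be abundant, 1, 1, 3 and 1 were detected, miR-290a-5p on each array. The whole list summed to between 836.6 and 1052 units with the blank level of each spot included, and miR-290a-5p gave 268.1 to 331.9 of these. The liver marker miR-122-5p was detected on none. Blood markers were detected in 2, 1, 2 and 1 of 5 cases, epithelial markers in 1, 0, 4 and 0 of 5, neural markers in 1, 2, 4 and 1 of 4, muscle markers in 1, 1, 2 and 1 of 4 and endothelial markers in 1, 0, 2 and 0 of 2. Their counts were highest with Wnt3a, as for the members, or equal to that with GFP, and their part in the members' count was not tested. Of all miRNA probes 32.5%, 28.9%, 56.2% and 26.4% were detected. miR-451a of the blood list was detected on all 4 arrays, at 128.6, 108.1, 115.4 and 118.6 units. These values lay above the limits from dim S-Probes, 112, 91.4, 101 and 109 units. Also detected on all 4 were miR-9-5p of the neural list, at 121.9, 95.94, 92.37 and 117.5 units, and miR-206-3p of the muscle list. With Wnt3a the detected epithelial markers gave 81.71 to 86.58 units and the neural ones 82.69 to 92.37. The limit there was 81.7 units from blank spots and 101 units from dim S-Probes.

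Levels were compared after background correction by normexp with an offset of 50 units and quantile normalization over all miRNA probes, for members detected on both arrays. Differences are given on the log2 scale. Replicate spots of dim control probes gave the spot-noise standard error (SE) of a difference, which leaves out variation between hybridisations and between cultures. It was 0.17 for Wnt3a or Wnt4 minus GFP and 0.19 for Wnt5a minus GFP. The offset shrinks differences of dim signals.

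The series concerns miRNAs between Wnt and TGF-beta signalling. With Wnt3a, the classical activator of beta-catenin signalling, the members differed little from their GFP levels. No member was 1.5-fold higher or lower among 27 detected on both arrays, where 1.47% of all miRNAs were at least that much higher and 2.29% lower. There were 17 members above 0 and 9 below, beside 48.0% of all miRNAs above 0. The median was 0.05, beside 0.00 over 612 miRNAs, and the values ran from -0.17 to 0.35. The SD of the members' differences was 0.14, below the spot-noise SE of 0.17, and 10 of the 27 lay beyond 1 SE and 1 beyond 2 SE, beside 41.8% and 14.4% of all miRNAs. Without normalization between arrays 21 members were above 0, beside 60.1% of all, and with scaling on bright control probes 26 were, beside 72.7%.

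The upper end of that range held 3p arms of miR-466 and miR-669 and 5p arms of miR-467 and miR-466, the last being miR-466c-5p at 0.26. The shared probe of miR-466b-3p, miR-466c-3p and miR-466p-3p gave 162, 146, 197 and 166 units. Its differences from GFP were 0.35 with Wnt3a, 0.15 with Wnt4 and 0.05 with Wnt5a, the highest of any member with Wnt3a. Over the 13 settings computed from the scanner values, its Wnt3a difference ran from 0.30 to 0.63, so the upper end passes 1.5-fold. miR-467a-5p gave 161, 131, 191 and 154 units. It differed from GFP by 0.30 with Wnt3a, -0.03 with Wnt4 and -0.06 with Wnt5a, so the Wnt3a array alone was higher.

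The probe for miR-669a-3p and miR-669o-3p gave 164, 151, 196 and 205 units. miR-669a has been reported to restrain muscle differentiation in mouse cardiac progenitors. The differences from GFP were 0.31 with Wnt3a, 0.21 with Wnt4 and 0.37 with Wnt5a, and the last was the highest of any member with Wnt5a. This probe was above its GFP level on all 3 Wnt arrays, under 1.5-fold on each, and all 3 comparisons share the GFP array. Over 13 settings its Wnt5a difference ran from 0.34 to 0.66. The 5p arm, on a probe for miR-669a-5p and miR-669p-5p, gave 142, 118, 140 and 134 units. Its differences were 0.00 with both Wnt3a and Wnt4 and -0.11 with Wnt5a, below those of the 3p arm in each comparison.

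After normexp and quantile normalization the other bright 3p arms were within 1.5-fold too. miR-669p-3p gave 138, 122, 156 and 145 units, with differences from GFP of 0.26 with Wnt3a, 0.12 with Wnt4 and 0.09 with Wnt5a. Over 13 settings its Wnt3a difference ran from 0.231 to 0.588, so the upper end just passes 1.5-fold. miR-669f-3p gave 164, 137, 182 and 172 units, with differences of 0.17 with Wnt3a, 0.04 with Wnt4 and 0.10 with Wnt5a. miR-466d-3p gave 156, 148, 174 and 151 units, with differences of 0.21 with Wnt3a, 0.26 with Wnt4 and -0.03 with Wnt5a. After normalization the first and second were highest with Wnt3a, and miR-466d-3p with Wnt4.

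miR-467d-3p gave 131, 113, 136 and 127 units, with differences of 0.12 with Wnt3a, 0.10 with Wnt4 and -0.04 with Wnt5a. The probe of miR-466a-3p and miR-466e-3p gave 179, 161, 182 and 165 units. Its differences were 0.05 with Wnt3a, 0.16 with Wnt4 and -0.12 with Wnt5a, each within the spot-noise SE.

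Of the 5p arms detected on all arrays, miR-467b-5p gave 121, 106, 121 and 127 units and miR-466i-5p, from a gene outside Sfmbt2, 129, 105, 127 and 120. miR-467b has been reported to target lipoprotein lipase in mouse macrophages. Their differences from GFP lay between -0.09 and 0.14 in the 3 comparisons. The probe of miR-466m-5p and miR-669m-5p gave 135, 106, 123 and 125 units and differed from GFP by -0.09 with Wnt3a, -0.04 with Wnt4 and -0.12 with Wnt5a. Over the settings it ran from -0.24 to 0.06 with Wnt3a and from -0.34 to 0.01 with Wnt5a, so those signs turn. The Wnt5a value was the lowest of any member with Wnt5a and lay within the SE. miR-297a-5p gave 121, 94.7, 112 and 118 units and differed from GFP by -0.04 with Wnt3a, -0.05 with Wnt4 and -0.02 with Wnt5a. The Wnt4 value was the lowest of any member.

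miR-466j, whose sequence is shown above, differed from GFP by 0.07 with Wnt3a, 0.15 with Wnt4 and 0.21 with Wnt5a. Its Wnt5a difference ran from 0.18 to 0.74 over 11 settings, so it too can pass 1.5-fold. miR-466c-5p gave 109, 89.7, 119 and 118 units, with differences of 0.26 with Wnt3a, 0.06 with Wnt4 and 0.17 with Wnt5a. miR-669f-5p gave 121, 98.2, 131 and 118 units and was above GFP with Wnt3a, by 0.19. The 3p arm of miR-467a gave 122, 102, 113 and 122 units and differed by -0.05 with Wnt3a, unlike the 5p arm, at 0.30. miR-466f-5p gave 114, 99.7, 102 and 113 units. The shared probe of miR-466b-5p and miR-466o-5p gave 93.2, 74.8, 81.7 and 82.4 units and was detected on none.

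**Figure D3:**
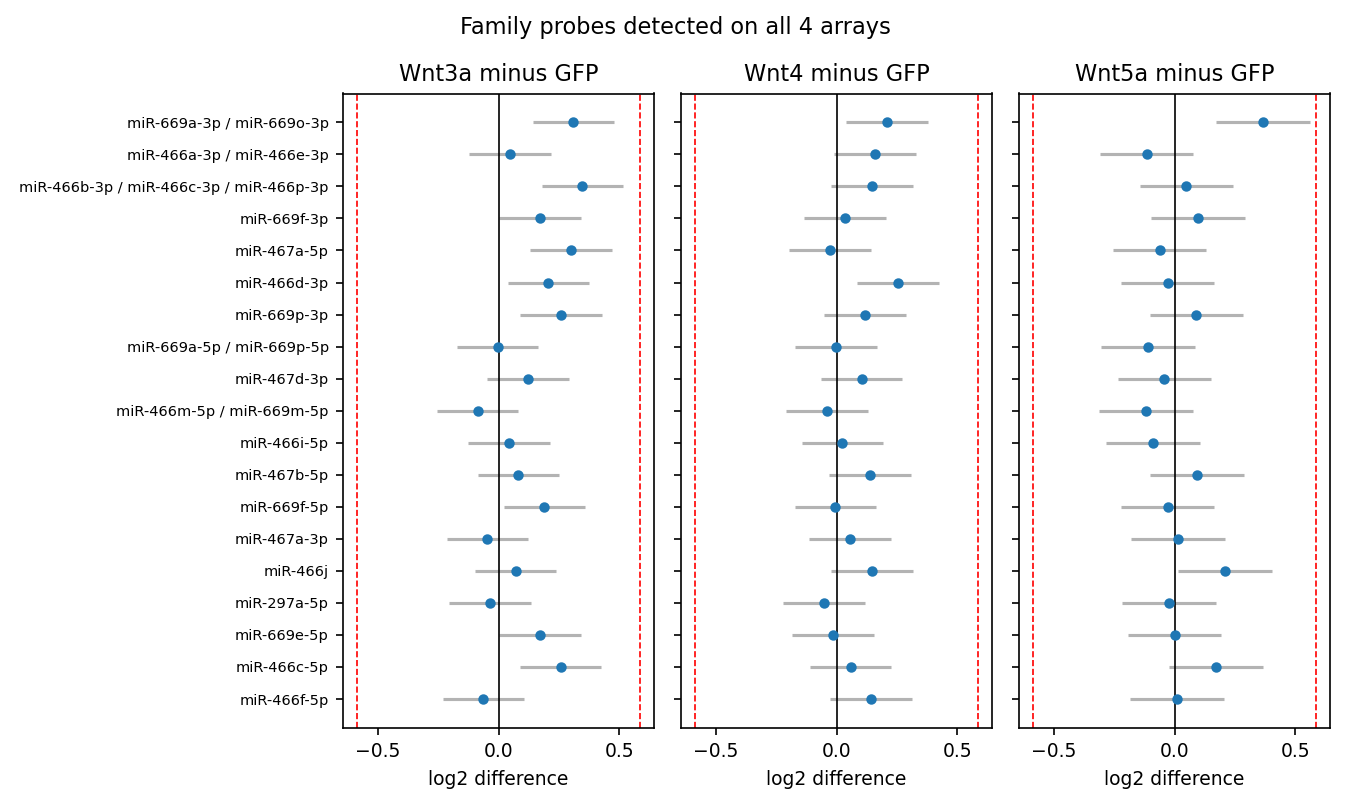
Log2 differences from GFP of the 19 family probes detected on all 4 arrays, for Wnt3a, Wnt4 and Wnt5a, ordered by mean level, with bars of 1 spot-noise SE (0.17, 0.17 and 0.19) and dashed lines at 1.5-fold. All points lie between the dashed lines, and the points farthest to the right are the probe of miR-466b-3p, miR-466c-3p and miR-466p-3p with Wnt3a, at 0.35, and that of miR-669a-3p and miR-669o-3p with Wnt5a, at 0.37.

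Of the 19 members in this plot, 5 changed sign between settings with Wnt3a, 12 with Wnt4 and 9 with Wnt5a.

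The lowest member with Wnt3a was miR-297c-5p, at -0.17. It gave 105, 69.3, 85.5 and 86.5 units, just above the limit with GFP and Wnt3a and below it on the others. Over 11 settings its Wnt3a difference ran from -1.79 to -0.09. On the GFP array the nearest probe above the limit was that of miR-297b-3p, miR-297a-3p and miR-297c-3p, at 105 units, and the nearest below was miR-467e-5p, at 104 units, which passed the limit on the 3 Wnt arrays. The shared miR-297 3p probe differed between Wnt3a and GFP by 0.00.

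The 3p arms as a list had 7 of 10 members above 0 with Wnt3a and a median of 0.15, and the 5p arms 7 of 14 and 0.02, beside 48.0% of all miRNAs above 0. With Wnt4, 9 of 9 3p arms and 4 of 10 5p arms were above 0, with medians of 0.12 and 0.00, beside 51.5% of all. Without normalization between arrays, 2 of the 9 3p arms were above 0 with Wnt4 and their median was -0.04, while the median of all miRNAs was at -0.17. With Wnt5a, 5 of 8 3p arms and 3 of 10 5p arms were above 0, beside 47.5% of all. Their medians were 0.03 and -0.03. When scaled to the median they were 0.06 and 0.02, beside 0.04 for all miRNAs. The difference between arms was not tested.

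By family, the Wnt3a median was 0.06 over 10 miR-466 probes, 0.10 over 4 of miR-467, 0.04 over 11 of miR-669 and -0.04 over 3 of miR-297. Probes with genes inside Sfmbt2 alone had a median of 0.10 over 20 probes, with 13 above 0, beside 48.0% of all miRNAs. The 3 probes with genes elsewhere alone were all above 0, with a median of 0.04. The Dlk1-Dio3 miRNAs, of another imprinted cluster, had 12 of 18 above 0 with a median of 0.03. For detection, 18, 19, 46 and 14 of 119 Dlk1-Dio3 probes were detected. No test of that difference was possible with 1 array per group.

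With Wnt4, 0 of 22 members detected on both arrays were 1.5-fold different from GFP, beside 0.193% of all miRNAs higher and 0.579% lower by that fold. There were 16 above 0 and 6 below, beside 51.5% of all above 0. The median was 0.05, beside 0.01 over 518 miRNAs. Without normalization between arrays 4 of the 22 were above 0, beside 8.3% of all, with a median of -0.09, beside -0.17. miR-466d-3p was the highest, at 0.26, with a span from 0.07 to 0.50 over the settings. With Wnt5a, 0 of 19 members were 1.5-fold different, beside 0.203% of all higher and 0% lower. There were 9 above 0 and 9 below, beside 47.5% above, and the median was 0.00, as over all 493 miRNAs. With scaling on bright control probes 18 of the 19 were above 0, beside 84.0% of all.

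The members detected with Wnt3a but not with GFP gave bounds close to 1. The brightest of those detected on the Wnt3a array alone were miR-669l-5p, miR-669c-3p and miR-466h-3p, each at 109 units there and at 95.8, 94.3 and 95.7 units with GFP. They were at least 1.15-fold, 1.14-fold and 1.14-fold higher with Wnt3a, set against the lowest level detected with GFP or their own level there, whichever was higher. With limits from dim S-Probes each of the 3 bounds was 1.05. On the Wnt5a array miR-669l-5p gave 111 units, just under the limit from blank spots and above the S-Probe limit of 109 units. Its normalized log2 levels were 6.55 with Wnt3a and 6.49 with Wnt5a, so it was close on these 2 arrays. miR-669c-3p and miR-466h-3p gave 101 and 105 units with Wnt5a, below both limits. miR-467c-3p, at 98.6 units, and miR-467h, at 98.3 units, lay below the S-Probe limit of 101 units and the negative control limit of 107 units on the Wnt3a array, so no bound is given for them. The choice of these members used the Wnt3a array, so the bounds are a description.

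The Wnt arrays were also set against each other, which leaves out the GFP array. With normexp 0 members were 1.5-fold different. With the blank mean subtracted 3 of 20 were between Wnt3a and Wnt5a, beside 15% of all miRNAs, 5 of 23 between Wnt3a and Wnt4, beside 21.6%, and 0 of 20 between Wnt5a and Wnt4, beside 4.31%. By the authors' deposited table, such members numbered 23 of 23, 23 of 23 and 11 of 21, beside 98.8%, 97.9% and 17.4% of all. With normexp 1.8% of all miRNAs were higher and 2.4% lower by that fold in Wnt3a minus Wnt5a, 1.65% and 3.48% in Wnt3a minus Wnt4, and 0.821% and 0% in Wnt5a minus Wnt4. Between Wnt3a and Wnt5a, 13 of 20 members were above 0, beside 48.9% of all, and the median was 0.09, beside 0.00 for all. There miR-467a-5p was the highest, at 0.36, and miR-466j the lowest, at -0.14. Between Wnt3a and Wnt4, 12 of 23 were above 0, beside 51.6%, with a median of 0.02, beside 0.01 for all, and miR-467a-5p was again the highest, at 0.33, with miR-466f-5p the lowest, at -0.21. Without normalization between arrays 22 of those 23 were above 0, beside 82.4% of all. Between Wnt5a and Wnt4, 6 of 20 were above 0, beside 46.6%, with a median of -0.04, beside 0.00 for all. The sign turned without normalization between arrays (18 of 20 above 0, median 0.12, beside 94.9% and 0.19 for all), on bright control probes (15 of 20, 0.07, beside 88.3% and 0.14) and scaled to the median (13 of 20, 0.03, beside 81.9% and 0.10). In that comparison the probe of miR-669a-3p and miR-669o-3p was the highest, at 0.16, and miR-466d-3p the lowest, at -0.28.

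Across the 4 arrays, the normalized levels of the 19 members detected on all of them spanned a median of 0.21 log2 units from the lowest to the highest array, beside 0.22 over 483 miRNAs. The span ran from 0.05 for miR-297a-5p to 0.37 for the probe of miR-669a-3p and miR-669o-3p. Of the 19, 9 were highest on the Wnt3a array, 5 on the Wnt4 array, 3 on the GFP array and 2 on the Wnt5a array. Of all 483 miRNAs, 177 were highest with Wnt3a, 106 with Wnt4, 113 with GFP and 87 with Wnt5a, so Wnt3a led there too.

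Members passed 1.5-fold under other choices of background. With the blank mean subtracted in place of normexp, 6 of 27 members were 1.5-fold different between Wnt3a and GFP, beside 23.7% of all miRNAs, and with the mean of the dim S-Probes subtracted 3 were, beside 19.3%. With the blank mean subtracted 0 of 22 were between Wnt4 and GFP, beside 5.21%, and 3 of 19 between Wnt5a and GFP, beside 6.09%. In the authors' deposited table each of the 30 members listed for Wnt3a and GFP was past 1.5-fold on the higher side, as were 95.6% of all miRNAs in either direction, with a median log2 difference of 1.81, beside 1.47 for all miRNAs listed there. For example, the authors' deposited table gave 29.0, 28.5, 115.1 and 19.7 units for the probe of miR-466b-3p, miR-466c-3p and miR-466p-3p. Each column of the authors' deposited table was a straight line of the spot medians that reached 0 at 90.7, 74.4, 72.7 and 96.8 units, close to the blank means, with slopes of 0.405, 0.399, 0.929 and 0.285. The Wnt3a slope was the steepest, and each column had a median of 25 over the miRNAs it lists, a linear scale without centring of genes. With a new factor per array, taken over miRNAs with a value on each, the authors' deposited table gave the members a median of 0.42 between Wnt3a and GFP, beside 0.08 for all, with 7 of 30 past 1.5-fold, beside 19.9% of all.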

How the data were processed

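Total RNA was labelled with Hy5 and read at 635 nm at 3 gains, per the labels and the file headers. The deposited scanner files hold raw spot median intensities, 1 spot per miRNA probe. No source used here names the scanner, its software or a genome build. The table of processed values, as deposited, is an intensity on the authors' own scale, which was worked out from the scanner values. Its normalization step is not stated.

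The background column followed the spot's own signal (Pearson correlation of log2 values 0.945 to 0.985 over miRNA probes) and was not used. Spot medians were corrected by normexp (offset 50, all spots), control spots were dropped, 2 probes not marked as good on the GFP array were left out, and 1898 probes were quantile-normalized (limma 3.58.1, R 4.3.3). Tables and plots were made in Python 3.11.15 (numpy 2.4.6, pandas 2.3.3, matplotlib 3.10.9). The spot-noise SE came from dim control probes (mean at most 300 units on every array). Alternatives changed the background correction, normalization, limit, shared probes and source of values. The steps were tested on simulated data, in which changes were set only in probes brighter on the GFP array than most members. That test does not cover the dimmer members.

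Probes were named by rule: the brightest on the GFP array per family and arm, the 12 with the highest mean level, the extremes of each comparison, the brightest detected on 1 array alone, shared probes, those next to the limit, and the 5 brightest probes outside the families with ACACAC or UGUGUG. miR-466c-5p, miR-669f-5p and miR-467a-3p were added after their values were seen. Groupings by shared seed or near-identical sequence were not made, since 8 members had a sequence. Members, lists and rule were chosen with earlier results of these data known. The number of arrays limits the precision.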

Additional observations from a re-analysis of the deposited data

How the results depend on the processing

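Of 108 values recomputed under another setting, 88 stayed within the spot-noise SE (medians of differences) or within 1.5 times (counts of detected members). Another 19 moved further and 1 changed sign by more than the SE. That SE is of 1 probe's difference and is larger than each main median, so a median that changed sign can count as within it. Without normalization between arrays the median went from 0.05 to -0.09 for Wnt4 minus GFP. It went from -0.04 to 0.125 for Wnt5a minus Wnt4. With the limit at 5 SD of the blank spots, 11, 11, 33 and 8 members were detected with GFP, Wnt4, Wnt3a and Wnt5a, beside 22.4%, 20.5%, 32.9% and 20.3% of all miRNAs. With the limit from negative control probes 16 were detected with GFP and 24 with Wnt3a, beside 24.7% and 26.0% of all. With that from dim S-Probes 28 were detected on the Wnt3a array, beside 28.7%. The median of the members between Wnt3a and GFP was 1.81 in the authors' deposited table and 0.42 in that table rescaled, beside 1.47 and 0.08 for all. Between Wnt4 and GFP it was -0.23 in the deposited table, beside -0.28 for all miRNAs. Between Wnt5a and GFP it was -0.86 in the deposited table and -0.26 rescaled, beside -0.59 and 0.01 for all. Between Wnt3a and Wnt5a it was 0.28 with the blank mean subtracted, 2.57 in the deposited table and 0.58 rescaled. All miRNAs were at 0.00, 2.04 and 0.05 there. Between Wnt3a and Wnt4 it was 0.21 without normalization between arrays, where all miRNAs were at 0.22. It was 1.93 in the deposited table and 0.21 rescaled, beside 1.75 and 0.02 for all. Between Wnt5a and Wnt4 it was -0.62 in the deposited table and -0.35 rescaled, beside -0.31 and -0.05 for all. The cause was not tested. Members past 1.5-fold numbered 0 in the 6 comparisons as reported. With the blank mean subtracted they numbered 6, 0 and 3 for Wnt3a, Wnt4 and Wnt5a minus GFP, beside 23.7%, 5.21% and 6.09% of all miRNAs, and 3, 5 and 0 for Wnt3a minus Wnt5a, Wnt3a minus Wnt4 and Wnt5a minus Wnt4, beside 15%, 21.6% and 4.31%. In the same order they numbered 30, 1 and 14 and then 23, 23 and 11 in the deposited table. They were out of 30, 23, 22, 23, 23 and 21 members, beside 95.6%, 14.2%, 50.6%, 98.8%, 97.9% and 17.4% of all miRNAs. In the rescaled table they numbered 7, 1 and 4 and then 11, 4 and 3 of the same members. The shares of all miRNAs there were 19.9%, 5.78%, 8.1%, 25.3%, 22.7% and 7.62%. The 2 alternatives with S-Probes were chosen after seeing the data. No paired analysis was possible because each group was 1 array. Signals near the background limit all statements on these families.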
